A study of Mus musculus with 4 samples.

Results

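N6-methyladenosine (m6A) peaks of genes that still carry a RIKEN clone name, with symbols ending in Rik, were examined in the neonatal mouse heart. Every peak whose gene symbol ended in Rik was taken from both deposited peak lists. These were 1183 of 41945 peaks, namely 550 of 21179 in the Wtap-CKO list and 633 of 20766 in the Wtapflox/flox list. They belonged to 441 of 12182 genes, 342 of them with a peak in the Wtap-CKO list and 380 with a peak in the Wtapflox/flox list.

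The study used MeRIP-seq, which captures RNA fragments with an antibody against m6A and sequences them beside the uncaptured input. The Wtap-CKO group consisted of conditional Wtap knockout mice, 8 of which were pooled, and the group set against it of Wtapflox/flox mice, whose name denotes loxP-flanked Wtap alleles, 7 of which were pooled. All mice were 4 days old, and the labels give 300 µg of heart RNA. With 1 immunoprecipitation (IP) library and 1 input library per genotype, 4 in all, the differences below have no replicate check and no test between genotypes was possible. The sources used here give no Cre driver, so the cells that lost Wtap are not known from them, and the sample titles of the knockout carry the abbreviation WBKO. Sequencing depth was unknown, because the peak lists contain no counts of reads.

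m6A is laid down on adenosines of nascent RNA by a nuclear writer complex in which METTL3 is the catalytic subunit, METTL14 supports RNA binding, and WTAP brings the catalytic pair to nuclear speckles together with other accessory subunits. The mark influences splicing, decay and translation of messenger RNAs, and it is also found on long noncoding RNAs. Symbols ending in Rik were given to mouse transcripts known at first only as full-length cDNA clones, so the class mixes coding genes that later received functional names with long noncoding RNAs and transcripts of unknown status.

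The heart origin of the RNA was checked on marker genes. All 8 cardiomyocyte markers (Myh6, Myh7, Tnnt2, Actc1, Ryr2, Nppa, Ttn and Pln) had a peak in both lists, with 23 peaks in the Wtap-CKO list and 45 in the Wtapflox/flox list. Of 5 fibroblast markers, 5 had a peak in the Wtap-CKO list and 4 in the Wtapflox/flox list, where Dcn had none. All 4 endothelial markers had peaks in both lists, while of 3 smooth muscle markers 3 had peaks in the Wtap-CKO list and 2 in the Wtapflox/flox list, where Acta2 had none. Ptprc and Cd68, of 3 immune markers, and Hba-a1, of 2 erythroid markers, had no peak in either list. Wtap itself had 4 peaks in the Wtap-CKO list and 3 in the Wtapflox/flox list, which does not check the deletion, because a peak is a ratio of IP over input and no transcript level. Nor do the numbers of marker peaks measure cells of a type or RNA per cell, which cannot be told apart in these bulk samples.

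Among the Rik genes were hosts of microRNAs, shown here because microRNAs are the best known products of these transcripts, and in human cells m6A on the primary transcript is known to aid its processing. In the RefSeq annotation of GRCm38.p6, 6 Rik genes with peaks contained 14 mature microRNAs on their own strand. The mature sequences of 6 of them are given below in 5′ to 3′ direction, with capitals marking the seed, bases 2 to 8, which pairs with target messenger RNAs.
mmu-miR-322-5p: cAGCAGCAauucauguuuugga
mmu-miR-503-5p: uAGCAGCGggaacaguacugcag
mmu-miR-351-5p: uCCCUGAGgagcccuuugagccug
mmu-miR-135a-5p: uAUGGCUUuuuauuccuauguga
mmu-miR-339-5p: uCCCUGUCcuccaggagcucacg
mmu-miR-1249-3p: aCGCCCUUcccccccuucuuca

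The first 3 of these sequences lie in C430049B03Rik on chromosome X, a long noncoding RNA that RefSeq also lists as Hrtlincrx. In the RefSeq table, 11 microRNA genes carry the seed of miR-322-5p, among them Mir15a, Mir15b, Mir16-1, Mir195a and Mir497 of the miR-15 family, which is known for its role in the postnatal cell cycle exit of mouse cardiomyocytes. The seed of miR-351-5p is carried by 6 microRNA genes, among them Mir125a and Mir125b-1, and that of miR-503-5p by 1. C430049B03Rik had 1 peak in each list and these overlapped. The Wtap-CKO peak (chromosome X, 52145124 to 52145601, GRCm39) was 478 bases wide with a fold enrichment of 15.7 and a log10 p of -48.2, and the Wtapflox/flox peak (52145303 to 52145511) was 209 bases wide with a fold of 26.5 and a log10 p of -7.22. The Wtap-CKO call thus spanned the whole Wtapflox/flox call and reached beyond it on both sides. Fold, p and q are the values of the authors' caller, which worked on each genotype separately, so they describe and rank peaks within their list and are set side by side without a comparison between the lists.

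D030055H07Rik on chromosome 9, the host of miR-135a-5p, had 0 peaks in the Wtap-CKO list and 2 in the Wtapflox/flox list, at 106032506 to 106032895 with a fold of 18.4 and at 106033044 to 106033283 with a fold of 25.7. The second had a log10 p of -6.98, and the same fold and log10 p were given to the Wtapflox/flox peak of 4930577N17Rik. Both peaks of D030055H07Rik overlapped Wtapflox/flox peaks of Glyctk, the glycerate kinase gene, on the other strand. The coding gene 3110082I17Rik, host of miR-339-5p, had 3 peaks in each list, all shared, and 5031439G07Rik, host of miR-1249-3p, had 2 in each list, also shared. The remaining hosts were 2700081O15Rik, with 4 peaks in the Wtap-CKO list and 2 in the Wtapflox/flox list, and 4930470G03Rik, with 1 in each. Whether these peaks touch a microRNA hairpin was not analysed here, because the microRNA positions and the peaks are on different builds.

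Rik peaks were narrower and had weaker q values than the peaks of their list as a whole, with larger folds. The median fold of Wtap-CKO Rik peaks was 10.3 (95% interval by order statistics 9.38 to 11.1), beside 7.03 over all peaks. Wtapflox/flox Rik peaks had a median of 9.62 (8.82 to 10.4), beside 7.22 over all peaks. The folds of single Rik peaks ran up to 81.6 in the Wtap-CKO list, at 4930474H06Rik, and up to 80.2 in the Wtapflox/flox list, at E130311K13Rik. The median log10 q was -4.89 for Rik peaks and -7.69 for all peaks in the Wtap-CKO list, and -5.82 for Rik peaks and -9.17 for all peaks in the Wtapflox/flox list. The median Rik peak covered 211 exonic bases in the Wtap-CKO list, where the median of all peaks was 241, and 240 in the Wtapflox/flox list, where it was 270. Gm predicted genes, another class of provisional names, also had narrower and weaker peaks than their lists, with a median of 209 bases in each list and a median log10 q of -6.50 in the Wtap-CKO list and -6.11 in the Wtapflox/flox list, but median folds of 7.19 in the Wtap-CKO list and 7.22 in the Wtapflox/flox list, close to those of all peaks. Only 12.2% of Rik peaks in the Wtap-CKO list and 13.3% in the Wtapflox/flox list were made of several exonic blocks, beside 23.3% of all Wtap-CKO peaks and 21.2% of all Wtapflox/flox peaks.

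The coding status of the gene split these values. Of the 441 Rik genes, 344 were found in the RefSeq table by symbol, 128 as protein-coding, 204 as long noncoding and 12 as another type. Peaks of protein-coding Rik genes had a median fold of 7.42 and a median width of 270 bases in the Wtap-CKO list, and 7.22 and 300 bases in the Wtapflox/flox list. Peaks of long noncoding Rik genes had a median fold of 11.1 and a median log10 q of -4.11 in the Wtap-CKO list, and 11.2 and -4.59 in the Wtapflox/flox list, with a median width of 210 bases in each. The plot of medians and quartiles shows the larger folds and smaller widths in the long noncoding genes of both lists.

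**Figure D1:**
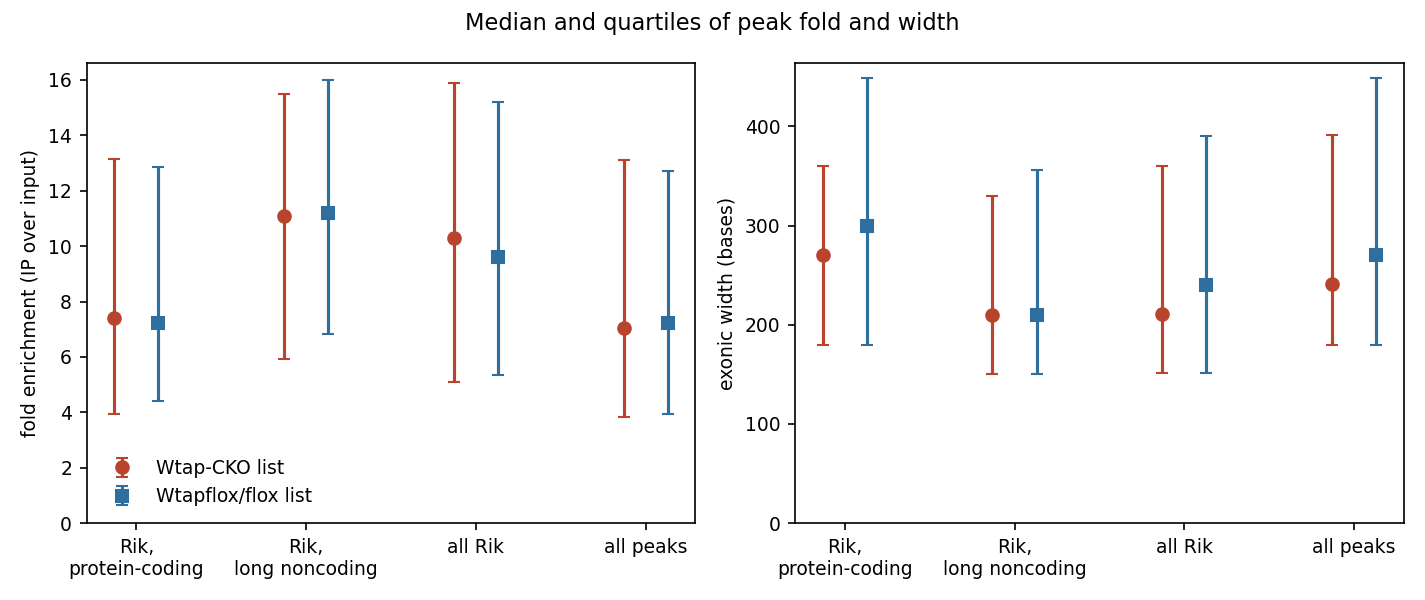
Median (points) and quartiles (bars) of the authors' fold enrichment (left, IP over input) and of the exonic peak width in bases (right), for peaks of protein-coding Rik genes, long noncoding Rik genes, all Rik genes and all genes, with the Wtap-CKO list to the left of the Wtapflox/flox list in each pair. Peaks of long noncoding Rik genes have a median fold of 11.1 in the Wtap-CKO list, above 7.03 for all its peaks, and of 11.2 in the Wtapflox/flox list, above 7.22.

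Many of these large folds recurred as exact values. Of Wtap-CKO Rik peaks, 295 (53.6%, exact 95% interval 49.4 to 57.9) had the same fold and the same log10 p as a peak of another gene, against 38.4% of all peaks. Of Wtapflox/flox Rik peaks, 317 (50.1%, 46.1 to 54.0) did, against 35.2% of all peaks. The most frequent pair of values among Wtap-CKO Rik peaks was a fold of 12.2 with a log10 p of -2.87, which 14 Rik peaks in 10 genes and 183 peaks in all carried. Among Wtapflox/flox Rik peaks it was a fold of 11.2 with a log10 p of -2.71, carried by 12 Rik peaks in 12 genes and by 150 peaks in all. Recurring values went with weak peaks, since their median log10 q was -3.28 in the Wtap-CKO list and -3.50 in the Wtapflox/flox list, while Rik peaks with values of their own had medians of -11.6 in the Wtap-CKO list and -13.6 in the Wtapflox/flox list. The median fold of Rik peaks with values of their own was 7.03 in the Wtap-CKO list and 8.35 in the Wtapflox/flox list. Over all peaks with values of their own it was 6.13 in the Wtap-CKO list and 6.42 in the Wtapflox/flox list. The part of the recurring values in the higher median folds was not tested further.

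The next question was which Rik peaks were present in both genotypes. Peaks counted as shared if they had 1 or more exonic bases in common with a same-strand peak of the other genotype. Of the Wtap-CKO Rik peaks, 139 (25.3%, exact 95% interval 21.7 to 29.1) had no counterpart, against 24.5% of all peaks. Of the Wtapflox/flox Rik peaks, 228 (36.0%, 32.3 to 39.9) had none, against 23.9% of all peaks. The Rik share was thus close to that of all peaks in the Wtap-CKO list and above it in the Wtapflox/flox list. The difference, Wtap-CKO minus Wtapflox/flox, was -10.7 percentage points among Rik peaks. The intervals are for counting error alone, and they treat every peak as independent, although several can belong to the same gene.

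Peaks of like strength were then compared. Between log10 q of -5 and -3, 30.0% of Wtap-CKO Rik peaks (22.3 to 38.7, 130 peaks) had no counterpart, beside 41.3% of all Wtap-CKO peaks of that strength. In the same bin, 46.5% of Wtapflox/flox Rik peaks (37.7 to 55.5, 129 peaks) had none, beside 37.5% of all Wtapflox/flox peaks. The Wtap-CKO Rik share lay below that of all peaks in each of the 7 bins of q, and its interval excluded that of all peaks in 2 of them. The Wtapflox/flox Rik share lay above that of all peaks in the 5 weaker bins, with an interval that excluded it in 3 of them, and below it in the 2 strongest, where Rik peaks numbered 50 and 73. Among Rik peaks whose fold and p did not recur, 10.2% in the Wtap-CKO list and 21.5% in the Wtapflox/flox list had no counterpart, beside 13.7% of all such Wtap-CKO peaks and 16.2% of all such Wtapflox/flox peaks.

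**Figure D2:**
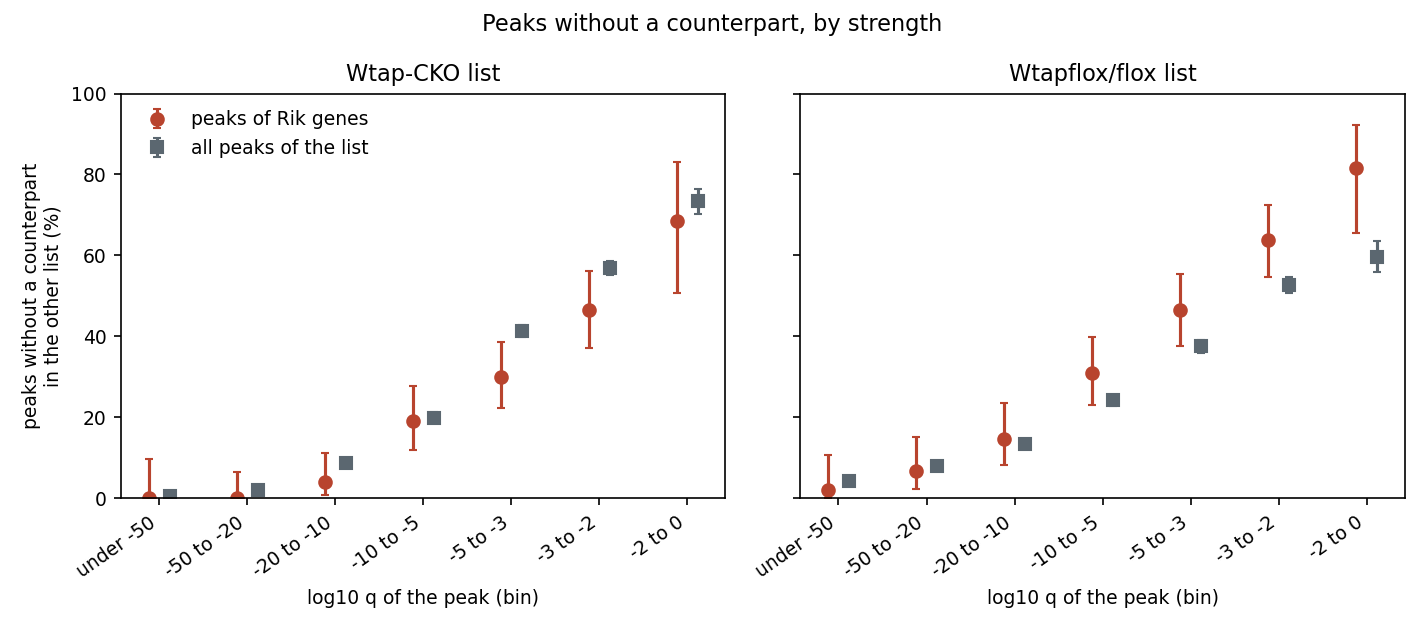
Percentage of peaks without a counterpart in the other list (vertical axis) by the log10 q of the peak in 7 bins (horizontal axis, strongest at the left), for peaks of Rik genes (circles) and all peaks (squares) in the Wtap-CKO list (left) and the Wtapflox/flox list (right), with exact 95% intervals that cover counting error. In the Wtapflox/flox list the Rik points lie above those of all peaks from the -20 to -10 bin onwards, for example at 46.5% against 37.5% in the -5 to -3 bin, and in the Wtap-CKO list they lie below them.

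The coding and the noncoding genes showed the same order of lists. Of peaks of protein-coding Rik genes, 21.8% (16.4 to 28.0) in the Wtap-CKO list and 30.7% (24.9 to 37.1) in the Wtapflox/flox list had no counterpart. Of peaks of long noncoding Rik genes, 27.2% (21.4 to 33.6) in the Wtap-CKO list and 40.4% (34.4 to 46.6) in the Wtapflox/flox list had none. Among peaks of Gm genes the share was 29.5% (26.9 to 32.2) in the Wtap-CKO list and 27.8% (25.2 to 30.5) in the Wtapflox/flox list. These intervals treat peaks as independent and cover counting error within a list, so they give no test between genotypes.

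Shared Rik peaks rarely coincided to the base. Of the 411 shared Wtap-CKO peaks and 405 shared Wtapflox/flox peaks of Rik genes, 27 had identical coordinates. This is 6.57% of the Wtap-CKO ones, beside 8.31% over all genes, and 6.67% of the Wtapflox/flox ones, beside 8.42% over all genes. The bases in common made up a median of 66.7% of those that a shared Rik peak and its counterpart covered together, in each list, beside 72.7% over all shared Wtap-CKO peaks and 72.9% over all shared Wtapflox/flox peaks. Of the unshared Wtap-CKO peaks, 68 lay in Rik genes with a Wtapflox/flox peak elsewhere, at a median of 873.5 bases from the nearest of these. Of the unshared Wtapflox/flox peaks, 104 lay in Rik genes with a Wtap-CKO peak elsewhere, at a median of 448 bases. These counts and distances were not taken over all genes, so they are no trait of Rik genes.

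By gene, 61 Rik genes (13.8%, 10.7 to 17.4) had peaks in the Wtap-CKO list only, against 11.9% of all genes. A larger group of 99 Rik genes (22.4%, 18.6 to 26.6) had peaks in the Wtapflox/flox list only, against 10.5% of all genes. The remaining 281 (63.7%) had peaks in both lists, beside 77.6% of all genes. Of the 1126 Gm genes, 21.4% had Wtap-CKO peaks only and 18.0% (15.8 to 20.4) had Wtapflox/flox peaks only. Peaks in both lists were found in 60.6% of Gm genes, so the lower share in both was not particular to Rik genes. The Wtapflox/flox-only intervals of Rik and Gm genes overlapped. Among protein-coding Rik genes, 9 of 128 had Wtap-CKO peaks only and 19 had Wtapflox/flox peaks only. Among long noncoding ones, 27 of 204 had Wtap-CKO peaks only and 55 had Wtapflox/flox peaks only. Of Rik genes that the RefSeq table did not list, 23 of 97 were in the Wtap-CKO list only and 21 in the Wtapflox/flox list only. Of 305 symbols that start with a digit, 37 were in the Wtap-CKO list only and 74 in the Wtapflox/flox list only (24.3%, 19.6 to 29.5), and of 136 that start with a letter 24 were in the Wtap-CKO list only and 25 in the Wtapflox/flox list only (18.4%, 12.3 to 25.9), so that these intervals overlapped. By peak, 26.2% of the digit class in the Wtap-CKO list and 37.3% in the Wtapflox/flox list had no counterpart, and 23.1% of the letter class in the Wtap-CKO list and 33.2% in the Wtapflox/flox list had none.

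**Figure D3:**
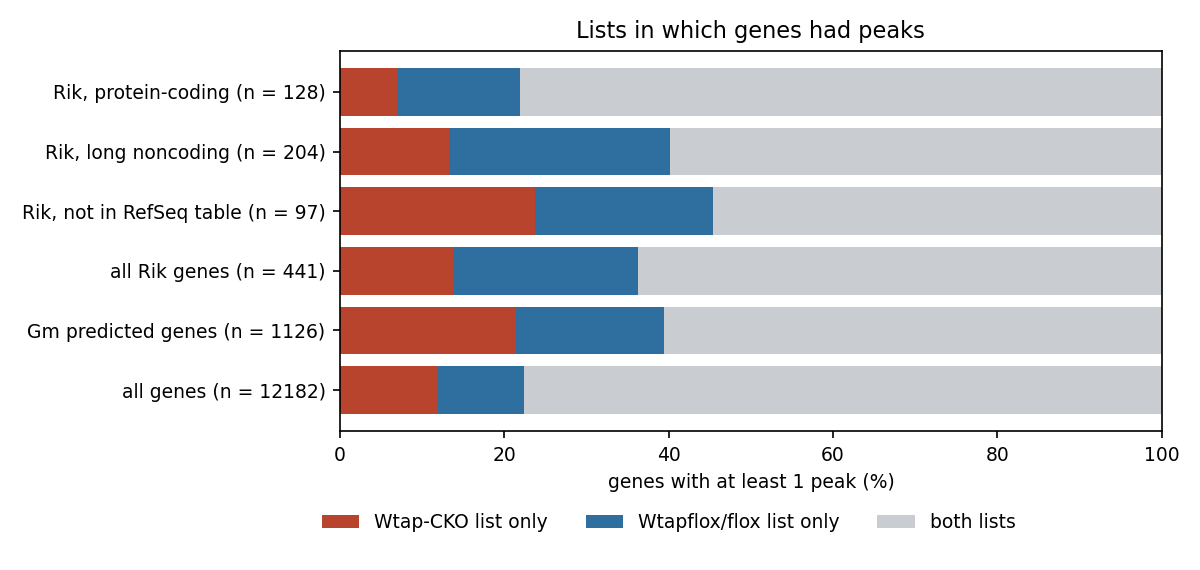
Percentage of genes (horizontal axis) with peaks in the Wtap-CKO list only, the Wtapflox/flox list only and both lists, for protein-coding, long noncoding and unlisted Rik genes, all Rik genes, Gm predicted genes and all genes, with the number of genes beside each bar. Of all Rik genes 13.8% had Wtap-CKO peaks only and 22.4% had Wtapflox/flox peaks only.

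Where both lists had peaks of a Rik gene, the numbers were mostly equal, in 184 of 281 genes (65.5%, against 56.7% of all genes in both lists). In 40 genes (14.2%, 10.4 to 18.9) the Wtap-CKO list had more peaks, against 23.8% of all genes, and in 57 (20.3%, 15.7 to 25.5) the Wtapflox/flox list had more, against 19.5% of all genes. A single peak was found in 211 Rik genes of the Wtap-CKO list and 228 of the Wtapflox/flox list, and 3 or more in 36 of the Wtap-CKO list and 47 of the Wtapflox/flox list. Genes with a single peak thus made up 61.7% of Rik genes in the Wtap-CKO list, against 48.2% of all genes, and 60% in the Wtapflox/flox list, against 49.2%. Genes with 3 or more made up 10.5% of Rik genes in the Wtap-CKO list, against 23.2% of all genes, and 12.4% in the Wtapflox/flox list, against 22.9%. Gm genes had a single peak still more often, in 81.1% of genes of the Wtap-CKO list and 79.4% of the Wtapflox/flox list.

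The coding Rik genes with cardiac or cellular roles known under other names came next. 3425401B19Rik, which RefSeq also lists as Cefip, encodes a cardiac protein of the Z-disc that interacts with FHL2. It had 3 peaks in the Wtap-CKO list on chromosome 14, with folds of 1.90, 3.59 and 5.15, and 4 in the Wtapflox/flox list, with folds of 5.59, 10.8, 6.65 and 3.70. Each of the 3 Wtap-CKO peaks overlapped a Wtapflox/flox peak. The Wtapflox/flox peaks at 32384700 to 32385299 (log10 p -23.8) and at 32385629 to 32385958 (log10 p -7.80) had no counterpart, and the nearest Wtap-CKO peak lay 958 and 1887 bases away. The Wtapflox/flox calls of this gene were thus more and wider, covering up to 1110 bases each, where the widest Wtap-CKO call covered 481.

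1110002E22Rik on chromosome 3, a protein-coding gene without a functional name in the table, had the strongest Wtapflox/flox peaks without a counterpart. It had 5 peaks in the Wtap-CKO list, with folds of 3.17, 2.42, 4.75, 6.63 and 2.34 in genomic order. Its 9 Wtapflox/flox peaks had folds of 3.67, 5.91, 2.74, 7.33, 4.81, 11.7, 6.14, 3.01 and 5.39. All 5 Wtap-CKO peaks were shared, while 6 of the 9 Wtapflox/flox peaks had no counterpart. The peak at 137786818 to 137787147 had a log10 p of -120 and lay 11575 bases from the nearest Wtap-CKO peak of the gene, and that at 137786279 to 137786579 had a log10 p of -41.9. A further one at 137775422 to 137776021 (log10 p -29.4) lay 179 bases from a Wtap-CKO peak. The map of both genes shows that the single-list peaks of 1110002E22Rik lay partly among or beside shared ones and partly in a separate 3′ group, and those of 3425401B19Rik at the 5′ end of its peaks.

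**Figure D4:**
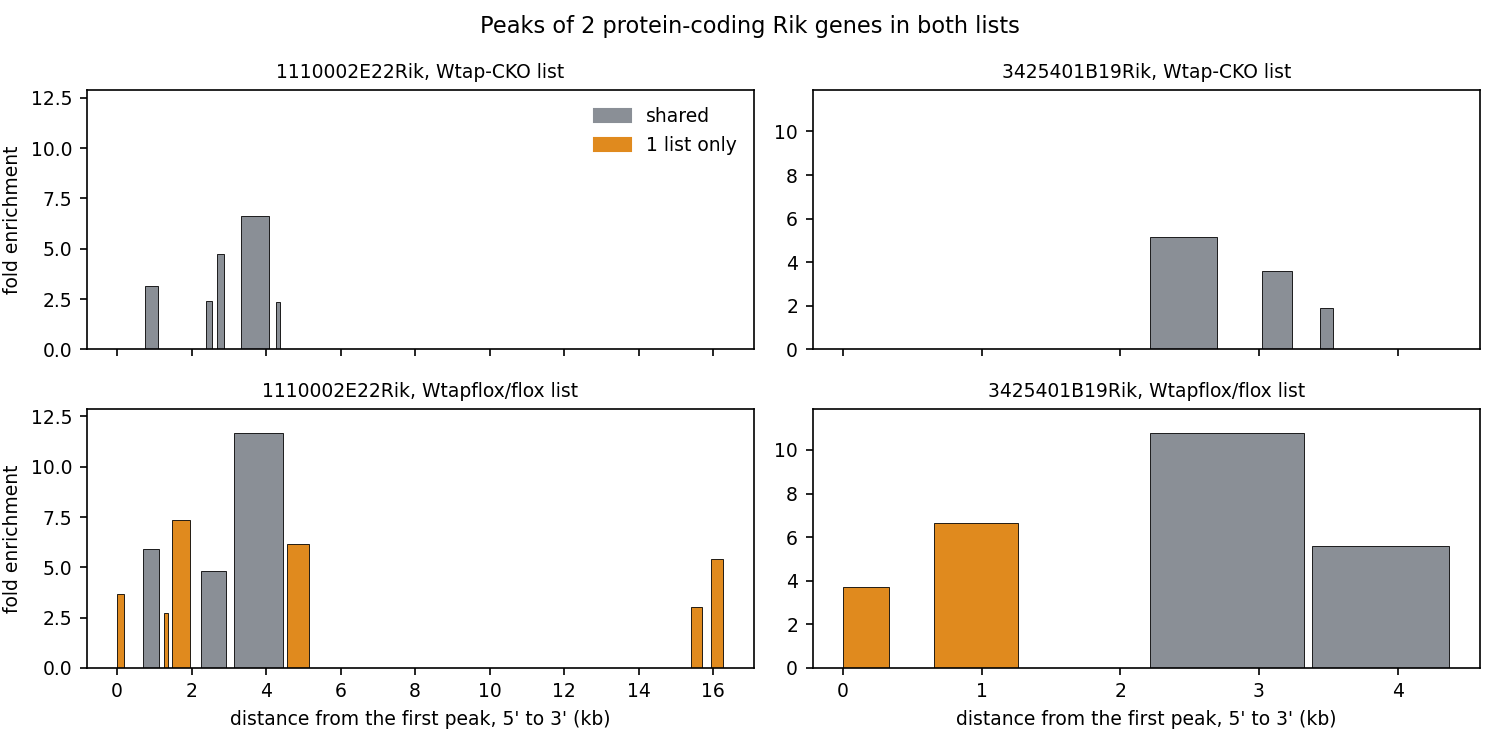
Peaks of 1110002E22Rik (left) and 3425401B19Rik (right) by distance from the first peak in kb, in the direction of transcription, with the Wtap-CKO list above the Wtapflox/flox list and bar height giving the fold enrichment within the list. Grey bars are shared and orange bars lie in 1 list: 1110002E22Rik has 5 bars above and 9 below, and 3425401B19Rik has 3 above and 4 below.

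1810058I24Rik, listed also as Stmp1 and encoding a small mitochondrial membrane protein, had 2 shared peaks on chromosome 6. The larger call, at 35238336 to 35238636 in the Wtap-CKO list with a fold of 2.92 and a log10 p of -73.5, overlapped one at 35238276 to 35238665 in the Wtapflox/flox list with a fold of 7.26 and a log10 p of -327. The other had a fold of 2.47 in the Wtap-CKO list and 2.06 in the Wtapflox/flox list. Both places were therefore called in both genotypes, the second of them with a log10 p of -9.48 in the Wtap-CKO list and -3.43 in the Wtapflox/flox list. 2610507B11Rik, or Kiaa0100, had a peak with the same coordinates in both lists (chromosome 11, 78180641 to 78181090), with a fold of 3.74 and a log10 p of -116 in the Wtap-CKO list and a fold of 5.81 and a log10 p of -291 in the Wtapflox/flox list.

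Other coding genes, chosen after their values were seen because their roles are known, were called in both genotypes. 1810037I17Rik, listed also as Aln, encodes another-regulin, a micropeptide that regulates the SERCA calcium pumps. Its only peak had a fold of 13.1 and a log10 p of -40.4 in the Wtap-CKO list (chromosome 3, 122717971 to 122718238) and a fold of 6.62 and a log10 p of -10.9 in the Wtapflox/flox list (122718001 to 122718209). The Wtap-CKO call of Aln thus contained the whole Wtapflox/flox call. A530016L24Rik, listed as Nrac after its expression in adipose and cardiac tissue, had 2 Wtap-CKO peaks with folds of 10.8 and 4.82 and 3 Wtapflox/flox peaks with folds of 6.55, 5.81 and 5.06, the last without a counterpart. 4932438A13Rik, listed as Kiaa1109 and Tweek, which belongs to the bridge-like lipid transfer proteins, had 1 shared peak, its fold being 3.75 in the Wtap-CKO list and 5.99 in the Wtapflox/flox list. The Wtapflox/flox peak of 4932438A13Rik lay on the other strand of a Gm12531 peak. 9530068E07Rik, or Kct2, encoding a transmembrane protein, had 1 shared peak, its fold being 3.09 in the Wtap-CKO list and 4.50 in the Wtapflox/flox list.

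Several coding Rik genes carried some of the strongest shared calls. 1600012H06Rik had a fold of 25 and a log10 p of -190 in the Wtap-CKO list (chromosome 17, 15163506 to 15164586, 2 blocks) and a fold of 21.7 and a log10 p of -200 in the Wtapflox/flox list (15163867 to 15164556). 2410002F23Rik on chromosome 7 had one of 1047 bases with a fold of 10.6 in the Wtap-CKO list and one of 1137 bases with a fold of 10.8 in the Wtapflox/flox list. 1810013L24Rik on chromosome 16 had 3 shared peaks, with folds of 22.1, 4.47 and 2.06 in the Wtap-CKO list and 20.3, 14.4 and 7.92 in the Wtapflox/flox list. All 3 places of this gene were thus called in both genotypes. B230219D22Rik on chromosome 13 had a Wtap-CKO peak of 2 blocks with a fold of 13.2 that overlapped 2 Wtapflox/flox peaks with folds of 3.74 and 8.79.

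The largest folds of shared Rik peaks were ranked within each list. Among Wtap-CKO peaks they were those of 4930474H06Rik (81.6), A630001G21Rik (77.8), C230096K16Rik (69.4), 5031425E22Rik (61.4) and 2310022B05Rik (55.6). The calls of 4930474H06Rik lay on the other strand of Dact1 peaks in both lists, so reads of these genes cannot be told apart there. The overlapping Wtapflox/flox peaks had a fold of 36.1 at 4930474H06Rik, 5.88 at A630001G21Rik, 16 at C230096K16Rik, up to 27.7 at 5031425E22Rik and 32.1 at 2310022B05Rik. Among Wtapflox/flox peaks the largest folds were those of E130311K13Rik (80.2), 9530085L11Rik (77.8), 4732491K20Rik (61.8), A930033H14Rik (54.5) and A730017L22Rik (50.5). Their Wtap-CKO counterparts had a fold of 6.73 at E130311K13Rik, 12.2 at 9530085L11Rik, 2.46 at 4732491K20Rik and 18.3 at A930033H14Rik, while at A730017L22Rik there were 2, with folds of 36.6 and 22.5. None of the 5 genes with the largest Wtap-CKO folds was among the 5 with the largest Wtapflox/flox folds. The same comparison was not made over all genes, so this is no trait of Rik genes.

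Strong single-list peaks were few in the Wtap-CKO list. Strong was taken as a q at or under 1e-10. Of 166 strong Rik peaks in the Wtap-CKO list, 3 (1.81%, 0.374 to 5.19) had no counterpart, against 4.04% of all strong peaks. Of 218 in the Wtapflox/flox list, 20 (9.17%, 5.69 to 13.8) had none, against 8.72% of all strong peaks. Without 1110002E22Rik, the Wtapflox/flox count was 16 of 211 (7.58%). At this threshold the interval of the Rik share included the share of all strong peaks in each list. At a q at or under 1e-5, 8.49% of Rik peaks (5.46 to 12.5) in the Wtap-CKO list had no counterpart, beside 9.02% of all such peaks, and 17.2% (13.3 to 21.6) in the Wtapflox/flox list had none, beside 13.0% of all such peaks, which lies below that interval.

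The 3 Wtap-CKO peaks belonged to 3 genes. A930005H10Rik, a long noncoding gene on chromosome 3 (115681541 to 115681779), had a fold of 11 and a log10 p of -16.4 on the other strand of a peak of Dph5. 1110038F14Rik, a coding gene on chromosome 15, had one at 76832975 to 76833215 with a fold of 13.1 and a log10 p of -13.2, beside a shared one whose fold was 4.69 in the Wtap-CKO list and 3.42 in the Wtapflox/flox list. 1700084C06Rik, not listed in RefSeq, had one of 2 blocks on chromosome 9 with a fold of 4.29 and a log10 p of -12.3. It overlapped peaks of Gm38431 and Raver1 on the other strand. Of the 3 genes, only 1110038F14Rik had a peak in the Wtapflox/flox list.

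The 20 Wtapflox/flox peaks belonged to 16 genes, and 15 of the 20 to coding ones. These 15 were 13.4% (7.69 to 21.1) of the 112 strong peaks of coding Rik genes. In long noncoding ones the share was 4 of 65 (6.15%, 1.70 to 15.0). Both intervals included the 8.72% of all strong Wtapflox/flox peaks. In 13 of the 20, the Wtap-CKO list had another peak of the same gene, a count that was not made over all genes. Beside 1110002E22Rik and 3425401B19Rik, 8030462N17Rik on chromosome 18, listed also as Ark2N, had 2 such peaks with folds of 5.36 and 4.26 and log10 p of -27.3 and -11.1. Its only Wtap-CKO peak, with a fold of 14.1 and a log10 p of -3.39, lay 39190 bases from the nearer of them. 1700025G04Rik on chromosome 1 had 1 of 2 blocks with a fold of 4.35 and a log10 p of -22.8, while another peak of 3 blocks was shared with folds of 11.1 in the Wtap-CKO list and 11 in the Wtapflox/flox list. 2310030G06Rik on chromosome 9 (50650991 to 50651291) had a fold of 18.6 and a log10 p of -20.8, and the Wtap-CKO list held no peak of this gene. The 6430571L13Rik peak on chromosome 9 (107225214 to 107225689) had the largest fold of these, 45.7, at a log10 p of -13.2. As the plot of single-list peaks shows, most of the others in both lists were weak, and their largest folds followed a line on which fold and p increase together.

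**Figure D5:**
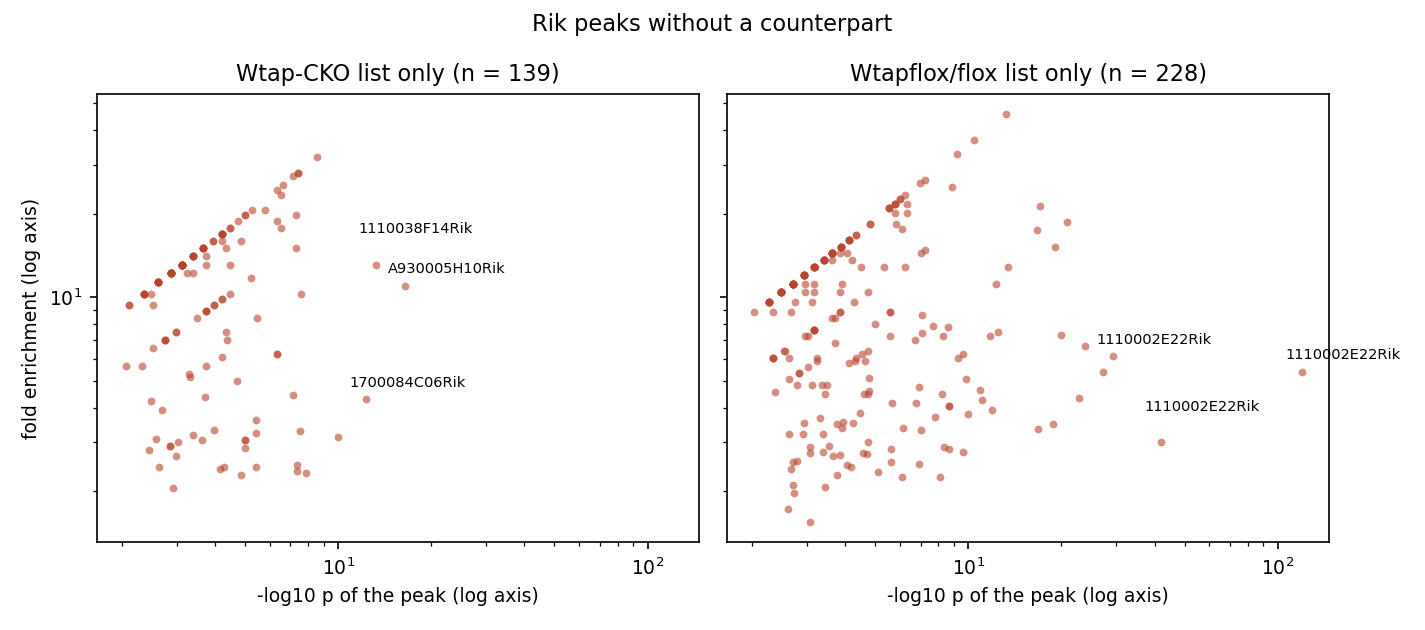
Fold enrichment (vertical, log axis) against -log10 p (horizontal, log axis) of Rik peaks without a counterpart, 139 in the Wtap-CKO list (left) and 228 in the Wtapflox/flox list (right), with the 3 strongest of each list named. The strongest Wtap-CKO point is A930005H10Rik (log10 p -16.4), and the 3 strongest Wtapflox/flox points are those of 1110002E22Rik (log10 p -120, -41.9 and -29.4).

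Some Rik genes with several peaks in a single list had only repeated rows of the same place, most of them so in the Wtap-CKO list but few in the Wtapflox/flox list. There were 9 genes with 2 or more Wtap-CKO peaks and no Wtapflox/flox peak, 14.8% of the Rik genes in the Wtap-CKO list only, against 12.4% of all such genes, but after overlapping peaks of a gene were joined 3 of them still had separate places, namely 3010003L21Rik, 8430429K09Rik and 9930012K11Rik. There were 21 with 2 or more Wtapflox/flox peaks and no Wtap-CKO peak, 21.2% of the Rik genes in the Wtapflox/flox list only, against 19.1% of all such genes, and 17 of them still had separate places. Both shares were near those of all genes. 8430429K09Rik, a long noncoding gene on chromosome 11, had 3 Wtap-CKO peaks with folds of 10.3, 11.3 and 15.0, all weak with log10 p between -2.47 and -4.32. The coding gene 9930012K11Rik on chromosome 14 had 2 with folds of 27.2 and 16.9. On the Wtapflox/flox side, the long noncoding gene 4632428C04Rik on chromosome 16 had 3 peaks with folds of 8.82, 17.4 and 8.62, the second with a log10 p of -16.7. The coding gene 6030458C11Rik on chromosome 15 had 3 with folds of 4.49, 2.74 and 2.73. E130308A19Rik, a coding gene on chromosome 4, had 2, of 540 and 870 bases with folds of 12.8 and 24.9. Among the 21, the genes 4632428C04Rik, E130308A19Rik and 2310030G06Rik had a call with q under 1e-10, and none of the 9 Wtap-CKO genes had one.

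Overlapping rows of the same gene were frequent among Rik peaks, but not among those of coding Rik genes. Of Rik peaks, 13.1% in the Wtap-CKO list and 12.3% in the Wtapflox/flox list overlapped another peak of the same gene in the same list, against 1.81% of all peaks in the Wtap-CKO list and 1.87% in the Wtapflox/flox list. In coding Rik genes the share was 1.90% in the Wtap-CKO list and 2.60% in the Wtapflox/flox list. In the same order of lists, it was 13.8% and 12.8% in long noncoding Rik genes. It was 29.4% and 27.1% in Rik genes not listed in RefSeq, and 4.23% and 4.22% in Gm genes. Joining overlapping rows of a gene left 514 Rik peaks in the Wtap-CKO list and 593 in the Wtapflox/flox list. Among the genes with most rows such overlap was common. 6330403L08Rik had 8 rows in each list, which lay in pairs of nearly equal coordinates, with folds of 4.81, 22.0, 13.1 and 20.6 in the Wtap-CKO list and 17.6, 6.10, 4.06 and 17.7 in the Wtapflox/flox list. Its strongest Wtap-CKO rows (log10 p -11.7) lay on the other strand of a Pdgfa peak. E130317F20Rik, a long noncoding gene at the Ptbp1 locus on chromosome 10, had 7 rows in the Wtap-CKO list and 11 in the Wtapflox/flox list, and 3222401L13Rik had 8 in each. The coding genes 2900026A02Rik, or Kiaa1671, with 8 in the Wtap-CKO list and 9 in the Wtapflox/flox list, and 9930021J03Rik, with 8 in the Wtap-CKO list and 6 in the Wtapflox/flox list, had separate places.

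In 9930021J03Rik on chromosome 19 the single-list peaks lay in different stretches. The Wtap-CKO list had 3 without a counterpart between 29731203 and 29732250, with folds of 9.38, 5.31 and 10.3, at least 34348 bases from the nearest Wtapflox/flox peak of the gene. The Wtapflox/flox list had 2 without a counterpart within 538 bases of a Wtap-CKO peak, with folds of 3.37 and 7.42. In 2900026A02Rik on chromosome 5, 2 Wtap-CKO peaks with folds of 31.9 and 12.2 and 2 Wtapflox/flox peaks with folds of 12.8 and 21.7 had no counterpart, while the 2 strongest places, with folds of 5.42 and 7.22 in the Wtap-CKO list and 7.32 and 9.83 in the Wtapflox/flox list, were shared.

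In 13 Rik genes, 4.63% of the 281 with peaks in both lists, no peak overlapped one of the other list, against 4.02% of all genes with peaks in both lists. The share of such genes was therefore near that of all genes. 8030462N17Rik, described above, was the strongest of these. 3110053B16Rik on chromosome 12 had 1 peak with a fold of 18.8 in the Wtap-CKO list and 1 with a fold of 4.16 in the Wtapflox/flox list, 43857 bases apart. 9430038I01Rik on chromosome 7 had 1 with a fold of 2.91 in the Wtap-CKO list and 1 with a fold of 7.02 in the Wtapflox/flox list, 11800 bases apart. In 1110032F04Rik on chromosome 3, 2 Wtap-CKO peaks with folds of 25.3 and 12.2 lay 150 and 660 bases from a Wtapflox/flox peak with a fold of 12. In 2510046G10Rik on chromosome 7 the calls alternated over a short stretch, with Wtap-CKO folds of 19.7 and 2.91 on either side of a Wtapflox/flox fold of 4.49. Apart from those of 8030462N17Rik, all peaks named here had log10 p values between -2.85 and -6.75.

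Among long noncoding Rik genes, 5430431A17Rik had the strongest Wtapflox/flox peak of all Rik genes. Its Wtap-CKO peak (chromosome 7, 44134554 to 44134850) had a fold of 3.09 and a log10 p of -39.4, and the overlapping Wtapflox/flox peak (44134303 to 44134939, 2 blocks) had a fold of 18.4 and a log10 p of -682. The strongest Wtap-CKO peak was that of 0610009E02Rik on chromosome 2 (26348457 to 26348900), with a fold of 19.6 and a log10 p of -206, which overlapped a Wtapflox/flox peak (26348457 to 26348870) with a fold of 16.1 and a log10 p of -147. The annotations A530058N18Rik and C130080G10Rik on chromosome 2 covered the same place, so that their peaks overlapped on the same strand. A530058N18Rik had a fold of 7.99 in the Wtap-CKO list and 4.73 in the Wtapflox/flox list, and C130080G10Rik had a fold of 7.39 in the Wtap-CKO list and 4.25 in the Wtapflox/flox list at that place, so these are not independent calls.

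Long noncoding genes with a known role, chosen after their values were seen, had weaker calls. 4833412C05Rik, listed as Bigheart and studied in mouse cardiac hypertrophy, had 1 peak of 3 blocks in the Wtap-CKO list with a fold of 11.7 and a log10 p of -9.24. Its Wtapflox/flox peaks were 2, a shared one (fold 12.8) with a log10 p of -3.17 and another with a fold of 10.4 and a log10 p of -4.72. A630072M18Rik, listed as Aptr, a regulator of the cell cycle inhibitor p21 in human cells, had 1 Wtap-CKO peak of 927 bases with a fold of 40.3 that overlapped 2 Wtapflox/flox peaks with folds of 5.50 and 34.5. Both genes thus had calls in both genotypes. Those of A630072M18Rik lay on the other strand of Rsbn1l peaks in both lists, so reads of these genes cannot be told apart there.

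Rik peaks also overlapped peaks on the other strand more often than the lists as a whole did. Of Wtap-CKO Rik peaks, 154 (28.0%, 24.3 to 31.9) overlapped some peak called on the opposite strand, against 7.64% of all peaks. Of Wtapflox/flox Rik peaks, 166 did (26.2%, 22.8 to 29.8), against 7.74% of all peaks. Peaks of Gm genes did so at least as often, with 32.0% in the Wtap-CKO list and 30.3% in the Wtapflox/flox list. The partner of a Rik peak was a gene with a functional name in 139 of the Wtap-CKO pairs and 147 of the Wtapflox/flox pairs, a Gm gene in 8 of the Wtap-CKO and 12 of the Wtapflox/flox pairs, and another Rik gene in 9 of each. Among Wtap-CKO Rik peaks the share was 33.2% in long noncoding genes, 8.06% in coding genes and 58.7% in genes not listed in RefSeq. Among Wtapflox/flox Rik peaks it was 30.9% in long noncoding genes, 9.96% in coding genes and 50.9% in genes not listed in RefSeq. The sources used here do not say whether reads were counted by strand, so reads of a Rik gene and its antisense partner cannot be told apart at these places.

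Several of the strongest Rik calls were of this kind. The 0610009E02Rik peak lay on the other strand of a peak of Notch1, a receptor that acts in heart valve and endocardial development. D330050I16Rik on chromosome 19 had a peak with the same coordinates in both lists (5438364 to 5438746), with a fold of 22.6 in the Wtap-CKO list and 21.4 in the Wtapflox/flox list, opposite Sart1, which encodes a spliceosome protein. 4930470G03Rik on chromosome 13, opposite the zinc finger gene Zscan26, had folds of 24.6 in the Wtap-CKO list and 21.4 in the Wtapflox/flox list. A230087F16Rik on chromosome 12, opposite the kinase gene Cdc42bpb, had folds of 5.07 and 2.29 in the Wtap-CKO list and 5.57 and 3.55 in the Wtapflox/flox list. The Rik genes 1500004A13Rik and 5830417I10Rik on chromosome 3 were called opposite each other, with folds of 14.9 and 13.6 in the Wtap-CKO list and 26.0 and 28.3 in the Wtapflox/flox list. Without the peaks that overlap the other strand, 27.8% of Rik peaks in the Wtap-CKO list and 41.1% in the Wtapflox/flox list had no counterpart, beside 24.7% of all such peaks in the Wtap-CKO list and 24.2% in the Wtapflox/flox list. Among Rik peaks that do overlap the other strand, 18.8% (13.0 to 25.9) in the Wtap-CKO list and 21.7% (15.7 to 28.7) in the Wtapflox/flox list had none, beside 21.1% of all such peaks in the Wtap-CKO list and 21.3% in the Wtapflox/flox list. The higher Wtapflox/flox share of Rik peaks was thus seen away from these places, while at them the Rik interval of each list included the share of all such peaks. Rik peaks at these places were also stronger. Their median log10 q was -7.635 in the Wtap-CKO list and -7.555 in the Wtapflox/flox list. Away from these places it was -4.36 in the Wtap-CKO list and -5.19 in the Wtapflox/flox list. Whether place or strength goes with the difference was not tested.

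The widest Rik peak of the Wtap-CKO list was that of the coding gene C130074G19Rik on chromosome 1, with 1846 bases in 2 blocks and a fold of 20.4, and it overlapped a Wtapflox/flox peak of 1786 bases with a fold of 11.8. The widest Wtapflox/flox peak, 3173 bases in 3 blocks, was that of 2700081O15Rik on chromosome 19, with a fold of 15.1. At that place the Wtap-CKO list had 3 separate peaks with folds of 13.9, 7.42 and 15.9. The peak with most blocks was that of 2810004N23Rik on chromosome 8 in the Wtap-CKO list, with 6 blocks and a fold of 3.70, and it overlapped a Wtapflox/flox peak of 5 blocks with a fold of 4.40. In the Wtapflox/flox list 2310033P09Rik on chromosome 11, with 5 blocks and a fold of 17.6, was the first by the naming rule, and its Wtap-CKO counterpart had 3 blocks and a fold of 14.1. The peaks of 2310033P09Rik named here lay on the other strand of Gm10434 peaks in both lists.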

How the data were processed

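Hearts of 4-day-old Wtap-CKO and Wtapflox/flox mice gave 4 MeRIP-seq libraries, 1 IP and 1 input per genotype, made from pooled RNA of 8 and 7 mice. Per the labels' protocols, RNA was cut to about 100 nt, incubated for 2 h with an anti-m6A antibody and read as 150-base pairs. Per the design text of the series, exomePeak 2.16.0 served the authors to call peaks per genotype, IP set against input, with q limited to 0.05. Build GRCm39 and the tools BWA 0.7.12, fastp 0.19.11 and HOMER 4.9.1 are named in the submitters' processing notes, which state no roles. The lists the authors deposited hold a p-value in the score column, log10 p and log10 q values, which were read here as a score because they reach minus infinity in some rows, and a fold, a ratio of IP over input on the linear scale. They hold no read counts, so depth is unknown and no correction for it was made.

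Groups were taken from the genotype labels. Peaks of both lists were compared with pandas 2.3.3, numpy 2.4.6 and scipy 1.17.1 in Python 3.11.15, and drawn with matplotlib 3.10.9. A counterpart needed at least 1 shared exonic base on the same strand, and genes were compared by Ensembl ID. The overlap step was tested on 3000 simulated peaks and found 100% of overlapping and 0% of other peaks. Intervals (95%) are exact Clopper-Pearson ones for shares and by order statistics for medians, which cover counting error only. No p-value between genotypes was computed, since each had 1 library pair. Gene types and synonyms came from a RefSeq table of GRCm38.p6 matched by symbol (344 of 441 Rik genes), and microRNA sequences from RefSeq of that build. Its coordinates served only to find microRNAs within genes.

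The members, the gene lists and the naming rule were chosen with earlier results of these data known. The rule took, by list, Rik genes with the largest fold or smallest p among shared and single-list peaks, several peaks in 1 list only, most peaks, peaks that do not overlap between lists, the widest peaks or most blocks, and strong calls on the other strand, 94 in all. Gene lists were the RefSeq types, symbols by first character, Gm genes and heart cell markers. Alternatives were q of 0.01 and 0.001, folds of 2 and 4, equal list lengths, overlaps of 50%, no strand, whole spans, merged peaks, 1 peak per gene, coding or long noncoding genes, symbols as key, and counterparts of the same gene. The 10000 smallest q values, the lists without 1110002E22Rik and the count of recurring fold and p values were added after the data were seen. Transcript regions and motifs were not analysed here.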

Additional observations from a re-analysis of the deposited data

How the results depend on the processing

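No paired analysis was possible because each genotype had 1 IP and 1 input library, and for the same reason no library could be left out. Of 138 alternative values, 106 stayed within the counting interval of the reported value or within 1.5 times a count, 32 did not, and 0 changed sign. The difference in the share of Rik peaks without a counterpart, Wtap-CKO minus Wtapflox/flox, was negative in 14 of 14 alternatives, from -7.23 to -13.3 percentage points. The share without a counterpart was 43.6% in the Wtap-CKO list and 50.9% in the Wtapflox/flox list when the overlap had to cover 50% of both peaks. It was 19.3% in the Wtap-CKO list among the 10000 peaks of smallest q from each list, and in the Wtapflox/flox list 41.2% at folds of at least 4 and 41.1% without peaks that overlap the other strand. With 10000 peaks from each list, 28 Rik genes had Wtap-CKO peaks only, 38 had Wtapflox/flox peaks only and 120 had both, fewer because fewer peaks entered. At q at or under 1e-5, the share of Rik peaks without a counterpart was 8.49% in the Wtap-CKO list, beside 9.02% of all such peaks. In the Wtapflox/flox list it was 17.2%, beside 13.0% of all such peaks. At 1e-20 these were 0% in the Wtap-CKO list (0 of 90 peaks, exact 95% upper limit 4.02%), beside 1.43% of all such peaks, and 4.88% in the Wtapflox/flox list, beside 6.27% of all such peaks. The median fold was 12.2 in the Wtap-CKO list and 11.2 in the Wtapflox/flox list at folds of at least 4, 7.42 and 7.22 for protein-coding genes, and in the Wtapflox/flox list 10.8 with 1 peak per gene and 11.2 for long noncoding genes. The median log10 q in the Wtap-CKO and Wtapflox/flox lists was -7.79 and -8.71 at q at or under 0.001, -6.42 and -7.22 with 1 peak per gene, -7.51 and -9.63 for protein-coding genes, and -4.11 and -4.59 for long noncoding genes. The median width was 271 and 301 bases at q at or under 0.001 and 270 and 300 for protein-coding genes, and 241 with 1 peak per gene in the Wtap-CKO list and 210 for long noncoding genes in the Wtapflox/flox list. The cause of these shifts was not tested, except where the alternative keeps fewer or other peaks by its construction. Depth is unknown here, and weak peaks depend on it most.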

Other observations

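Of the 61 Rik genes with Wtap-CKO peaks only, 52 had a single peak, and in 50 of these (82% of the 61, against 78.6% of all genes in that list only) its q was above 1e-10. Of the 99 with Wtapflox/flox peaks only, 78 had a single peak, and in 74 of these (74.7% of the 99, against 68.2% of all genes in that list only) its q was above 1e-10. Rik peaks with fold and log10 p values that recurred at another gene lacked a counterpart in 38.3% of cases in the Wtap-CKO list and 50.5% in the Wtapflox/flox list, beside 41.7% of all such peaks in the Wtap-CKO list and 38.3% in the Wtapflox/flox list. In long noncoding Rik genes, 61.8% of peaks in the Wtap-CKO list and 62.6% in the Wtapflox/flox list had recurring values, beside 42.7% in the Wtap-CKO list and 32.9% in the Wtapflox/flox list in protein-coding Rik genes. What sets the recurring values was not tested.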
